A study of Mus musculus with 2 samples.

Results

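The Sprouty genes, the ERK-directed dual specificity phosphatases and the ETS factors of the Etv4 group are switched on by signaling through the ERK kinase cascade, and most of them act back on it. Growth factor receptors activate Ras, Raf, MEK and ERK in turn. Sprouty and Spred proteins block the step from receptor to Ras or Raf, the phosphatases remove the activating phosphates from ERK, and Etv4 and Etv5 are transcription factors that carry the signal to further target genes. In the mammary gland this pathway works downstream of EGF and FGF family receptors during branching and alveolar growth.

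The 10 genes described here were *Spry1*, *Spry2* and *Spry4*, the Sprouty-related *Spred1* and *Spred2*, the phosphatases *Dusp4*, *Dusp5* and *Dusp6*, and *Etv4* and *Etv5*. They were chosen by symbol, and all 10 were found among the 25810 genes listed with a symbol. The libraries were made from mammary epithelial cells (MECs) of inguinal glands on lactation day 3, 1 from WT and 1 from *Igfbp7*-null (*Igfbp7*-/-) mice, after lineage positive cells had been depleted on magnetic beads. The methods name CD45, CD31 and Ter119 for this step, markers of leukocytes, endothelial cells and erythroid cells, while the labels name CD35 in place of CD31. The null allele lacks the first coding exon in every cell of the animal, so that the knockout is not confined to the epithelium. The labels give a C57BL/6 background for both genotypes, while the methods state that the knockout was made on CD1. The age of the mice and the number that contributed to each library were not given in the sources used here. Poly(A) RNA was sequenced on the SOLiD platform, and the authors deposited for every gene a read count, the reads per 1000000 mapped (RPM) and the RPM per kilobase of gene length (RPKM).

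With 1 library per genotype no difference between genotypes could be tested. Ratios below are *Igfbp7*-/- over WT on the log2 scale, from RPM with 0.1 RPM added to both values. Their 95% Clopper-Pearson intervals cover the counting of read pairs only and not the variation between mice. A gene was counted as higher or lower at a ratio of 1.5 in either direction, the fold that the study used. The study also set cutoffs on P value and sequence quality, which were not applied here. Mapped reads numbered 34327854 in WT and 35016847 in *Igfbp7*-/-, of which 82.4% and 72.3% fell on listed genes. The targeted gene *Igfbp7* was covered by 5224 reads in WT and by 37 in the knockout library, or 152.2 and 1.06 RPM.

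Markers of the labelled cells were abundant, and their balance differed between the libraries. All 5 genes of the milk-secreting epithelium were lower in *Igfbp7*-/-, their sum being 110194 RPM in WT against 41288 RPM, and 4 of 6 luminal genes were higher (1356 and 3264 RPM). Of the basal and myoepithelial genes 5 of 6 were lower (2942 and 957.9 RPM). Of the endothelial genes 4 of 5 were lower in *Igfbp7*-/- (1066 and 345.1 RPM), and whether these cells had been depleted differs between the labels and the methods. The methods also report that few of the remaining cells stained for lineage markers, CD31 among them. All 6 leukocyte genes found were lower (112.9 and 42.2 RPM). Of the fibroblast genes 3 of 5 were lower (4390 and 2631 RPM), of 3 measured adipocyte genes 2 were lower and 1 higher, and none of 3 measured erythroid genes was counted either way. In such bulk samples, fewer cells of a type and less RNA per cell cannot be told apart.

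Most of the ERK feedback genes were close in level between the libraries. Of the 10 genes, 1 (*Spry4*) was counted as lower and 1 (*Etv4*) as higher, while 8 differed by less than 1.5 times. Across the 14026 genes that reached 1 RPM in WT or *Igfbp7*-/-, the same rule counted 23.0% as lower and 21.4% as higher, and all 10 genes were in that set. The median log2 ratio of the 10 genes was -0.19, beside 0.035 for all genes tested. Regardless of sign, the median size of the log2 ratio was 0.36 for the 10 genes and 0.51 for all genes tested. The counting interval lay below 0 for 5 genes, above 0 for 2 genes and included 0 for 3 genes. Over all genes tested, the interval lay below 0 for 32.6% and above 0 for 34.8%.

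**Figure D1:**
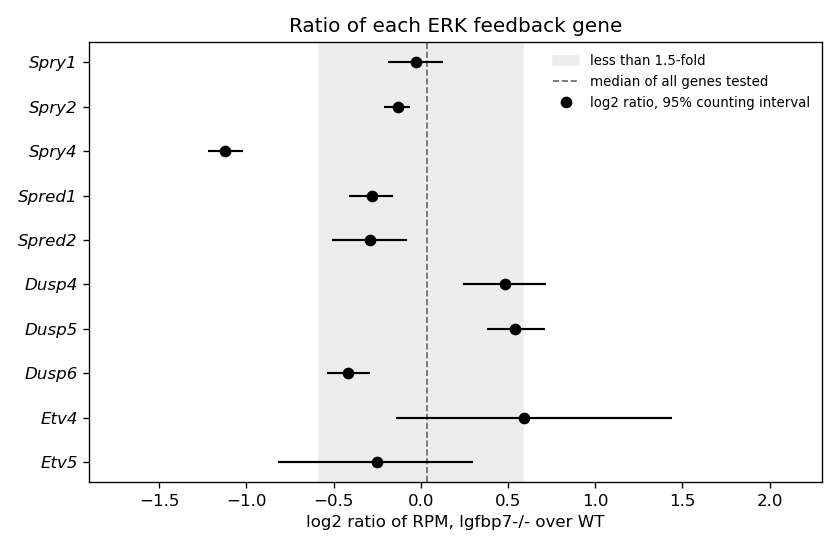
Log2 ratio of RPM (*Igfbp7*-/- over WT, 1 library each) of the 10 genes. Points are the ratios, lines are 95% counting intervals, the grey band marks ratios under 1.5-fold and the dashed line is the median of all genes tested. *Spry4* at -1.12 is the only gene whose whole interval lies outside the band, and *Etv4* at 0.59 has an interval that crosses it.

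*Spry4*, on chromosome 18, showed the largest difference. It was covered by 5434 reads in WT and by 2550 reads in *Igfbp7*-/-. These amount to 158.3 and 72.8 RPM, 2.17-fold lower, with a log2 ratio of -1.12 (-1.22 to -1.02). Of all genes tested, 80.6% had a ratio of smaller size. In the same library the summed markers of milk-secreting, basal, endothelial, leukocyte, fibroblast and adipocyte cells were lower and those of luminal cells were higher. The adipocyte sum (557.4 and 191.3 RPM) was mostly *Fabp4* (543.5 and 173.4 RPM), while *Lep* was higher (8.04 and 16.9 RPM). The part of any of these cell types in the *Spry4* difference was not tested.

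The other Sprouty genes did not share this difference. *Spry2*, on chromosome 14, was the most abundant of the 10 genes per length, with 5879 and 5461 reads in WT and *Igfbp7*-/-, respectively. Its levels of 171.3 and 156.0 RPM gave a log2 ratio of -0.13 (-0.21 to -0.06). *Spry1*, on chromosome 3, had 1341 reads in each library (39.1 and 38.3 RPM), with a log2 ratio of -0.03 (-0.19 to 0.13). Reads of *Spry4* per read of *Spry2* numbered 0.924 in WT and 0.467 in *Igfbp7*-/-, a log2 change of -0.99 (95% interval of the conditional odds ratio on read pairs -1.11 to -0.86). This ratio is taken within each library and needs no library total. For *Spry1* per *Spry2* the change was 0.11 (-0.07 to 0.28). The Sprouty genes summed to 368.6 RPM in WT against 267.1 RPM in the knockout library, and the share of *Spry2* in the summed RPKM of the 3 genes was 62.0% and 70.4%, respectively.

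*Spred1* and *Spred2*, which recruit the Ras inactivator neurofibromin to the membrane, were both slightly lower in *Igfbp7*-/- with the deposited RPM. *Spred1*, on chromosome 2, was covered by 2306 and 1934 reads (67.2 and 55.2 RPM), a log2 ratio of -0.28 (-0.41 to -0.16). *Spred2*, on chromosome 11, was covered by 799 and 664 reads (23.3 and 19.0 RPM), with a ratio of -0.29 (-0.51 to -0.08). The balance between them was close in both libraries, with 2.89 and 2.91 reads of *Spred1* per read of *Spred2* and a log2 change of 0.01 (-0.23 to 0.26). *Nf1*, which encodes neurofibromin, stood at 74.7 RPM in WT and 96.8 RPM in *Igfbp7*-/-, within 1.5 times.

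The 3 phosphatases went in different directions. They belong to one enzyme family, and the codons of the catalytic signature that they share are shown here because the counts of the 3 genes can only be compared if their reads can be told apart. Each stretch codes for the signature from its histidine to its arginine, with the codons of the catalytic cysteine and of the arginine in capitals, 5′ to 3′ on the coding strand of the NCBIM37 (mm9) build.
*Dusp4*: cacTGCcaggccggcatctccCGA
*Dusp5*: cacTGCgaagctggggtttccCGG
*Dusp6*: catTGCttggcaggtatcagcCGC
The *Dusp4* stretch lies at chr8:35881487-35881510 in exon 4 of 4, that of *Dusp5* at chr19:53615441-53615464 in exon 4 of 4, and that of *Dusp6* at chr10:98728661-98728684 in exon 3 of 4, all in coding sequence on the plus strand. Of the 24 bases, 17 were the same in *Dusp4* and *Dusp5*, 16 in *Dusp4* and *Dusp6*, and 13 in *Dusp5* and *Dusp6*. No stretch of 35 bases, the shorter read length, in the transcripts of these 3 genes occurred in a protein-coding transcript of another gene. Among the 10 genes this held for all except *Spry2*, where 0.488% of such stretches (10 in number) also occurred elsewhere. Only exact matches were searched, whereas the mapping allowed at most 3 mismatches. Reads shared between genes through mismatches, or with other loci, are therefore not excluded. No other gene of the GENCODE annotation of this build overlapped any of the 10.

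*Dusp6*, which encodes a cytoplasmic phosphatase specific for ERK, drew 2449 reads in WT and 1867 in *Igfbp7*-/- (71.3 and 53.3 RPM), which gave a log2 ratio of -0.42 (-0.54 to -0.29). *Dusp5*, whose product acts on ERK in the nucleus, drew 1007 reads in WT and 1500 in *Igfbp7*-/- (29.3 and 42.8 RPM), and its ratio was 0.54 (0.38 to 0.71). *Dusp4*, another nuclear phosphatase, drew 483 and 687 reads (14.1 and 19.6 RPM), with a ratio of 0.48 (0.24 to 0.72). *Dusp5* and *Dusp4* were thus higher and *Dusp6* lower in *Igfbp7*-/-, each by less than 1.5 times. Their summed level was 114.7 RPM in WT and 115.8 RPM in *Igfbp7*-/-. Within the libraries, reads of *Dusp5* per read of *Dusp6* numbered 0.411 in WT and 0.803 in *Igfbp7*-/-, a log2 change of 0.97 (0.76 to 1.17). For *Dusp4* per *Dusp6* the numbers were 0.197 and 0.368, a change of 0.90 (0.62 to 1.17), and for *Dusp5* per *Dusp4* the change was 0.07 (-0.23 to 0.36).

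**Figure D2:**
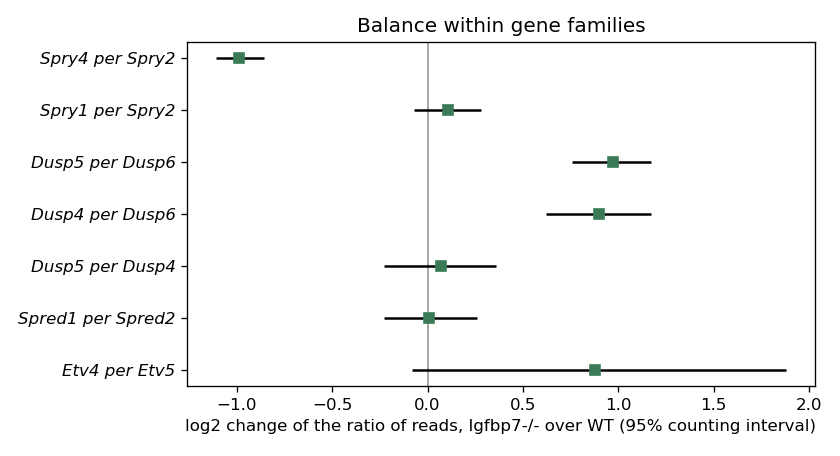
Log2 change (*Igfbp7*-/- over WT) of the ratio of reads between 2 genes of one family, counted within each library. Squares are the changes and lines their 95% counting intervals. *Spry4* was lower relative to *Spry2* (-0.99), *Dusp5* and *Dusp4* were higher relative to *Dusp6* (0.97 and 0.90), and the intervals of the other 4 pairs include 0.

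Promoter sequences, 250 bases before to 50 after the transcription start, were taken from RefSeq (GRCm38.p6) and were found for 7 of the 10 genes, with *Etv5* having a pair of starts. *Dusp4*, *Spry4* and *Etv4* had no entry. They were searched on both strands for the ETS motifs CGGAAGT and AGGAAGT, the cyclic AMP response element TGACGTCA, the AP-1 motif TGANTCA and the CArG box, the element bound by serum response factor. The promoters of *Dusp5* and *Dusp6* are shown because these phosphatases differed in opposite directions, with motif matches in capitals.
*Dusp5*, chr19:53528895-53529194, plus strand: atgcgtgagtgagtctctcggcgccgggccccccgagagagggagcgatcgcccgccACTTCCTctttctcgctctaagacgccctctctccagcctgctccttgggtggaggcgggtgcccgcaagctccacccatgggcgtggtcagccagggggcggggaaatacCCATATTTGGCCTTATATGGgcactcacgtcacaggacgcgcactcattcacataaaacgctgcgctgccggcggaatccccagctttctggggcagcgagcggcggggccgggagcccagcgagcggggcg
*Dusp6*, chr10:99262981-99263280, plus strand: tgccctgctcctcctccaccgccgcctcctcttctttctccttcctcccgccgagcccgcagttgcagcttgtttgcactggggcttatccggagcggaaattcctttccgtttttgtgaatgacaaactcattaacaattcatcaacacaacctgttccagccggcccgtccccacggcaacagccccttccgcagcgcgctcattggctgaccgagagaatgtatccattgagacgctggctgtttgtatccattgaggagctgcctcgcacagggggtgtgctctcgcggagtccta
The *Dusp5* window held 2 adjoining CArG boxes, beginning 82 and 72 bases before the start, and an AGGAAGT match on the minus strand 193 bases before it. A CArG box was found in no other of the 8 windows of these genes and in 1.63% of all 32851 promoter windows. AGGAAGT was also found in a window of *Etv5* and in that of *Spred2*, against 9.35% of all windows. CGGAAGT, TGACGTCA and TGANTCA were found in none of the 8 windows and in 6.42%, 1.79% and 7.81% of all windows, respectively. The *Dusp6* window held none of the motifs. A match describes the sequence only and does not show that a factor binds there. Whether motifs go with the direction of a difference was not tested.

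*Etv4* and *Etv5* were the least abundant of the 10 genes. *Etv4*, on chromosome 11, was covered by 49 reads in WT and 77 in *Igfbp7*-/- (1.43 and 2.20 RPM), 1.51-fold higher, and its log2 ratio of 0.59 had an interval (-0.14 to 1.44) that included 0. The difference was therefore not detectable at this depth, although it passed the fold threshold. *Etv5*, on chromosome 16, was covered by 122 and 104 reads (3.55 and 2.97 RPM), with a ratio of -0.25 (-0.82 to 0.30). For *Etv4* per *Etv5* the reads gave 0.402 in WT and 0.740 in *Igfbp7*-/-, with an interval of the log2 change (0.88, -0.08 to 1.88) that also included 0.

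Per length, *Spry2* stood first in both libraries, at 81.4 RPKM in WT and 74.2 RPKM in *Igfbp7*-/-, and took 37.1% and 37.9% of the summed RPKM of the 10 genes. In WT it was followed by *Spry4* (34.3 RPKM), *Dusp5* (25.4), *Dusp6* (25.4), *Spred1* (22.1), *Spry1* (15.7), *Spred2* (8.10), *Dusp4* (5.80), *Etv5* (0.92) and *Etv4* (0.61). Neighbours in this order differed by more than the counting of read pairs, except *Dusp5* from *Dusp6* and *Etv5* from *Etv4*. In *Igfbp7*-/- the order after *Spry2* was *Dusp5* (37.1 RPKM), *Dusp6* (18.9), *Spred1* (18.2), *Spry4* (15.8), *Spry1* (15.4), *Dusp4* (8.08), *Spred2* (6.60), *Etv4* (0.94) and *Etv5* (0.77). There the intervals overlapped between *Dusp6* and *Spred1*, *Spry4* and *Spry1*, *Dusp4* and *Spred2*, and *Etv4* and *Etv5*. With the deposited RPKM *Spry4* thus stood at place 2 in WT and at place 5 in *Igfbp7*-/-.

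The place of *Dusp5* rests on the gene length behind its RPKM. The authors' values imply 1155 bases for *Dusp5*, which is the coding length of its GENCODE transcript, whereas that transcript has 2473 bases. For *Dusp6* they imply 2814 bases, close to the 2794 of the transcript. With transcript lengths *Dusp5* came to 11.9 RPKM in WT and 17.3 RPKM in *Igfbp7*-/-, places 5 and 3 in order. *Dusp6* came to 25.5 and 19.1 RPKM, places 3 and 2. *Spred1*, with 3042 bases implied and 6016 in the transcript, took place 6 in both libraries, at 11.2 and 9.18 RPKM. *Spry4* took place 2 in WT as before and place 4 in *Igfbp7*-/-, and *Spry1* places 4 and 5. The other 5 genes, *Spry2* in first place among them, kept their places in both libraries. Ratios between the libraries are not affected by these lengths.

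**Figure D3:**
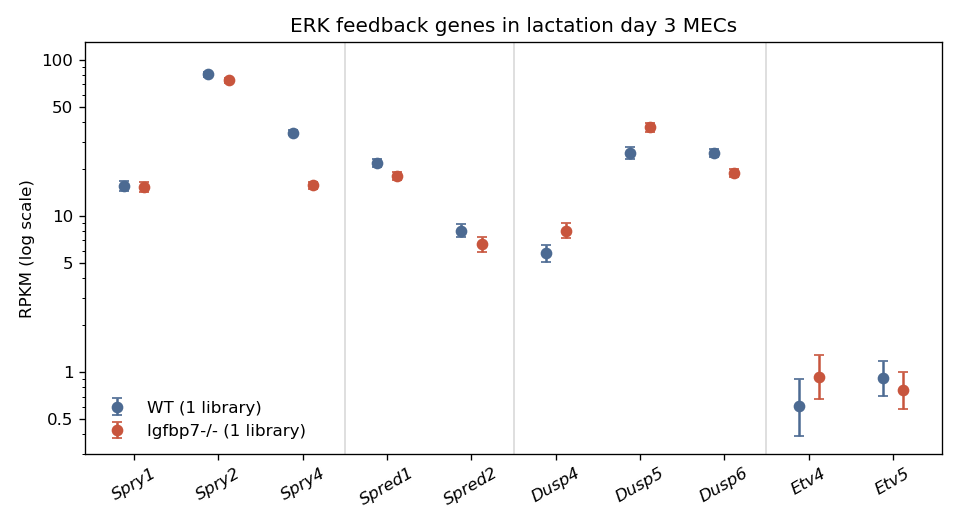
RPKM (log axis) of the 10 genes in the WT and the *Igfbp7*-/- library. Points are the deposited values and bars 95% Poisson intervals on read pairs. *Spry2* lies highest in both libraries (81.4 and 74.2 RPKM), *Spry4* is at 34.3 and 15.8 RPKM, and both ETS genes stay below 1 RPKM.

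Since most ratios were small, the choice of library total mattered. With the reads on listed genes as the total, every log2 ratio shifted by 0.19 and the median of all genes tested went to 0.22. *Dusp4* (0.66) and *Dusp5* (0.73) then joined *Etv4* among the higher genes, which made 3 of 10 against 30.3% of all genes, and *Spry2* (0.05) and *Spry1* (0.16) changed sign. The differences of *Spred1* (-0.09) and *Spred2* (-0.11) became smaller under that total. Leaving the 20 most abundant genes out of the total put *Dusp5* (0.60) and *Etv4* above the threshold, 2 of 10 against 23.9%, and *Spry1* (0.02) again changed sign. With TMM factors 0 of 10 genes were counted as higher, against 20.8% of all genes. *Spry4* was counted as lower under every total tried, with log2 ratios between -1.14 and -0.92.

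**Figure D4:**
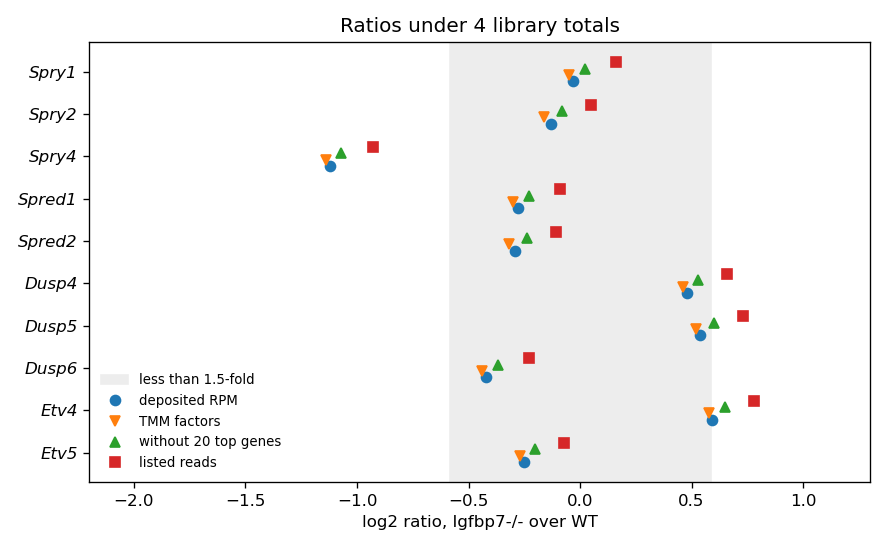
Log2 ratio (*Igfbp7*-/- over WT) of the 10 genes under 4 library totals, namely the deposited RPM, TMM factors, a total without the 20 most abundant genes and the reads on listed genes. The grey band marks ratios under 1.5-fold. *Spry4* lies outside the band under each total, *Etv4* and *Dusp5* lie inside or outside its upper edge depending on the total, *Dusp4* leaves it only with the reads on listed genes (0.66), and the other 6 genes lie inside it.

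The nearest relatives of the 10 genes were read from a list of 13, of which 12 were listed in the files. By the 1.5-fold rule 4 were higher and 2 lower in *Igfbp7*-/-, and the median log2 ratio was 0.25. The counts of this list and of the other lists stand beside 21.4% higher and 23.0% lower over all genes tested, and with so few genes per list nothing particular to a list was read from them. *Dusp16* and *Dusp8*, which encode phosphatases that act mainly on the stress kinases JNK and p38, were higher. *Dusp16* went from 123.8 to 367.2 RPM (log2 ratio 1.57, 1.5 to 1.64) and *Dusp8* from 14.7 to 41.7 RPM (1.49, 1.29 to 1.71). *Dusp2*, an inducible phosphatase best known from leukocytes, was lower (11.4 and 4.14 RPM, -1.43, -1.88 to -1.07), and the leukocyte markers were lower in the same library, a link that was not tested. *Dusp1*, an immediate early gene of this family, stood at 434.1 and 450.6 RPM, a log2 ratio of 0.05 (0.01 to 0.10). *Spred3* had 156 and 262 reads (0.71, 0.30 to 1.14). *Etv1*, the remaining member of the Etv4 group, had 73 and 32 reads (-1.13, -2.15 to -0.31).

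Other inhibitors of receptor tyrosine kinases, or of signaling steps below them, act beside the Sprouty genes. Of 16 measured genes 5 were higher and 1 was lower, with a median log2 ratio of 0.29. *Errfi1*, an inhibitor of the ERBB receptor kinases, was abundant and went from 1219 to 2573 RPM (1.08, 1.05 to 1.10). *Cbl*, a ubiquitin ligase that sends active receptors to degradation, went from 20.9 to 46.2 RPM (1.14, 0.96 to 1.33), and *Rasa1*, which inactivates Ras, from 36.8 to 73.5 RPM (0.99, 0.86 to 1.14). These genes were named for the largest differences in their list. In that list 12 of 16 genes had a log2 ratio above 0. Over all genes tested the median was 0.035, and the share above 0 is not given here. The gene counted as lower was *Pea15a* (94.0 and 60.9 RPM, -0.62). The Sprouty and Spred proteins also act at the receptor and at Ras. Their 5 genes described above had log2 ratios from -1.12 to -0.03 with the deposited RPM, while *Spred3* stood at 0.71. With the reads on listed genes as the total, *Spry1* (0.16) and *Spry2* (0.05) were above 0.

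The core of the cascade lay mostly within 1.5 times. Of 20 genes from the receptor adaptors to ERK and its kinase substrates, none was higher and 1 was lower, and the median log2 ratio was 0.20. The lower gene was *Ksr1*, a scaffold for Raf, MEK and ERK (24.8 and 11.1 RPM, -1.15, -1.42 to -0.92). The next largest differences were those of the docking protein gene *Gab1* (125.7 and 187.7 RPM, 0.58) and the adaptor gene *Grb2* (44.2 and 29.9 RPM, -0.56). With the reads on listed genes as the total, 6 of the 20 genes were higher, a share close to the 30.3% of all genes under that total.

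Other genes that ERK induces or acts on were also listed. Of 23 measured genes 9 were higher and 3 lower, with a median log2 ratio of 0.20. *Myc* went from 107.6 to 335.6 RPM (1.64, 1.57 to 1.72). *Srf*, which encodes serum response factor, went from 42.9 to 124.4 RPM (1.54, 1.42 to 1.66). *Elk3*, an ETS factor that works together with it, was lower at 21.0 and 6.17 RPM (-1.75, -2.09 to -1.46). The list held 10 Egr, Fos, Jun and Ier genes, most of which are immediate early genes. Of these, *Egr1* (0.91), *Egr2* (0.90), *Fosb* (1.25) and *Junb* (0.94) were higher and *Fosl1* (-0.67) was lower. *Fos* (0.45), *Jun* (0.43), *Ier2* (0.20), *Ier3* (-0.16) and *Egr3* (-0.19) stayed within 1.5 times. *Phlda1*, *Epha2*, *Epha4* and *Ccnd1* are often read as ERK output together with Sprouty and Dusp genes. Their log2 ratios were -0.16, -0.26, -0.63 and -0.44, so that *Epha4* (11.8 and 7.62 RPM) was counted as lower and the others stayed within 1.5 times. These 14 genes were named after their values had been seen.

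Upstream of the cascade, of 15 receptor genes past the minimum 3 were higher and 1 was lower, with a median of 0.05, and of 16 ligand genes 4 were higher and 8 lower, with a median of -0.41. *Erbb3* went from 20.6 to 105.2 RPM (2.35, 2.19 to 2.52) and *Erbb2* from 11.8 to 26.3 RPM (1.15, 0.92 to 1.40). *Kdr*, the VEGF receptor of endothelial cells, was lower (62.8 and 29.8 RPM, -1.07, -1.23 to -0.92). Of the endothelial markers 4 of 5 were also lower, a link that was not tested. Among the ligand genes *Egf* went from 12.3 to 1.94 RPM (-2.60, -3.23 to -2.13), *Ereg* from 63.2 to 15.5 RPM (-2.02, -2.22 to -1.83) and *Igf2* from 54.9 to 22.1 RPM (-1.31, -1.49 to -1.14). The 4 higher ligand genes, *Areg*, *Epgn*, *Fgf2* and *Fgf18*, stayed below 10 RPM in both libraries. A minimum of 10 RPM therefore left 0 higher and 7 lower ligand genes, with a median of -0.90. The shares over all genes at that minimum are not given here.

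**Figure D5:**
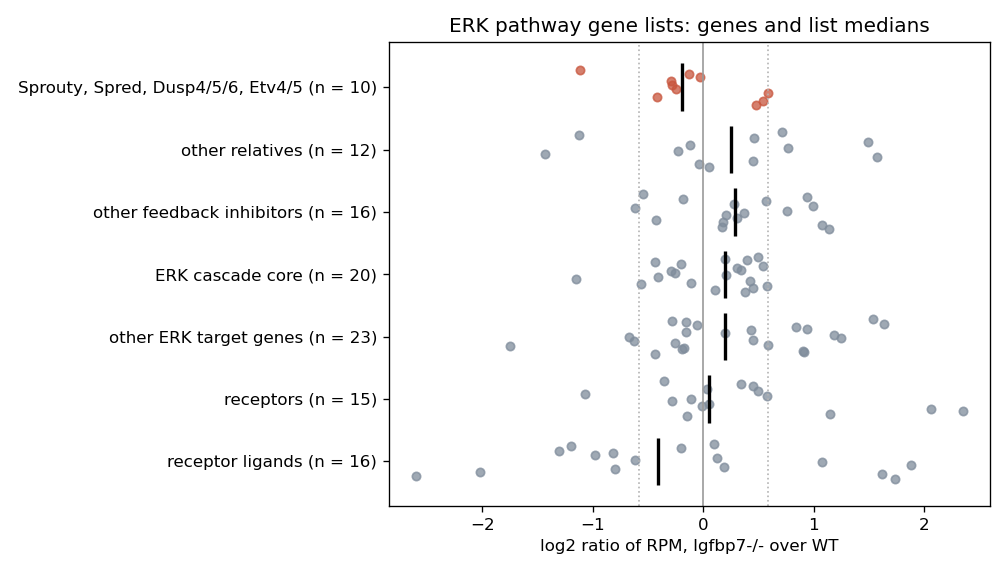
Log2 ratio of RPM (*Igfbp7*-/- over WT) of every gene that reached 1 RPM in either library, for the 10 feedback genes (red) and 6 other lists of the ERK pathway (grey). Black bars are list medians and dotted lines mark 1.5-fold. The medians run from -0.41 for ligands to 0.29 for the inhibitor list, labelled other feedback inhibitors. The 10 feedback genes apart from *Spry4* lie between -0.42 and 0.59.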

How the data were processed

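Paired-end reads of 35 and 75 bp from MECs of 2 libraries were mapped by the authors with the SOLiD Bowtie pipeline in GeneSifter, allowing at most 3 mismatches. The submitters' processing notes name Bowtie 0.12.3, SAMtools 0.1.15 and mm9, whereas the methods name a human build. How reads with several matches were handled and whether counting used the strand were not given in the sources used here. The authors deposited raw read counts per gene, RPM scaled to all mapped reads, and RPKM. The deposited RPM totals are larger than the sum of listed counts. In each file 50 of 25860 rows had no symbol, with 0.049% (WT) and 0.067% (*Igfbp7*-/-) of listed reads, and were left out.

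Low counts were mostly even (75.8% and 74.1% of counts from 1 to 20), so intervals were computed on read pairs. A count of 0 allows up to 3 reads, 0.0874 RPM in WT and 0.0857 RPM in *Igfbp7*-/-. Intervals cover counting error only. Each group had 1 library, so no test was made. Named genes were all 10 feedback genes, *Igfbp7*, and from each pathway list up to 3 genes with the largest log2 ratio in size among those with at least 10 RPM, besides *Dusp1*, *Spred3* and *Etv1*. *Spry3* was also on the list of relatives. *Nf1* was named in addition, for its role with the Spred proteins, and *Pea15a* as the gene of the inhibitor list counted as lower. Members and lists were chosen with earlier results of these data known. Alternatives were other pseudocounts, RPKM, minimums, totals and thresholds. A total without ribosomal and small nuclear RNA, and transcript lengths, were added after seeing the data. The ratio and interval code was tested on simulated counts. Gene models came from GENCODE on NCBIM37. Python 3.11.15, scipy 1.17.1, pandas 2.3.3 and edgeR 4.0.16 (for TMM factors) were used.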

Additional observations from a re-analysis of the deposited data

How the results depend on the processing

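The number of the 10 feedback genes counted as higher, 1 as reported, was 0 with a pseudocount of 1 RPM, with RPKM, with a minimum of 10 RPM, with TMM factors and with a threshold of 2. It was 2 without the 20 most abundant genes and 3 with either total of listed reads, with or without ribosomal and small nuclear RNA. The number counted as lower stayed at 1 (*Spry4*) under every alternative. The median log2 ratio of the 10 genes, -0.19 as reported, was -0.01 with the total of listed reads and 0.00 when ribosomal and small nuclear RNA were also left out. It moved by at most 0.1 under the others. Over the 6 other pathway lists together, the 25 higher genes became 39 with either total of listed reads and 15 with a threshold of 2, and the 16 lower genes became 9 with a threshold of 2. Over all genes tested, the share counted as higher went from 21.4% to 30.3% with the total of listed reads. Shares over all genes at a threshold of 2 are not given here. Of 108 recomputed ratios of single feedback genes, 12 left the counting interval, all with a total of listed reads, and none of the genes counted as higher or lower changed sign. The 108 include settings that cannot change the ratio of a single gene, namely other minimums and intervals on single reads. With transcript lengths, 9 of 20 places in the order of levels moved. Intervals on single reads in place of pairs were narrower, and that of *Etv4* (0.09 to 1.17) then excluded 0. No paired analysis was possible because each genotype had 1 library, and for the same reason no library could be left out. Depth limited the values of *Etv4* and *Etv5* most, with at most 122 reads each.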
